A study of Homo sapiens with 6 samples.

Results

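Alpha and beta tubulins are the subunits from which microtubules are built. Each is encoded by a family of closely related genes, the isotypes. The genes described here are 4 alpha isotypes (TUBA1A, TUBA1B, TUBA1C and TUBA4A) and 6 beta isotypes (TUBB, TUBB2A, TUBB2B, TUBB3, TUBB4B and TUBB6). They were taken by gene name from a table of 58735 genes, and all 10 were found in it. RNA-seq had been performed on PC9-BrM3, a brain metastatic subpopulation of the PC9 lung adenocarcinoma line that was labelled as routinely cultured. BrM3-shAKR1B10 (3 libraries, genotype label AKR1B10 knockdown) carried an shRNA against AKR1B10 in a lentiviral vector (vector 1). BrM3-shNC (3 libraries, genotype label WT) carried a negative control shRNA. The comparison asks which transcripts differ once AKR1B10, an aldo-keto reductase, is silenced. A single targeting sequence was profiled, so effects of that sequence and of AKR1B10 loss cannot be told apart.

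An alpha and a beta tubulin bind GTP and pair into a dimer. Dimers add to and leave the ends of a microtubule, which carries cargo between divisions and forms the spindle in mitosis. A cell's tubulin mRNAs are also destabilized when free dimers are in excess. The factor TTC5 recognizes the amino end of a tubulin as it leaves the ribosome and brings the machinery that degrades the mRNA. Isotypes differ mostly in their carboxy-terminal tails, where enzymes remove or add tyrosine and add chains of glutamate or glycine. TUBB, TUBB4B, TUBA1B and TUBA1C are found in most dividing cells, while TUBB3 is best known as the neuronal beta tubulin.

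Levels are given as FPKM, sequenced fragments scaled to the length of the gene and the size of the library. Reads per gene could be recovered from them as whole numbers, and ranged from 16964504 to 18709028 per library in total. For each kilobase of gene length, 3 reads, taken as the smallest level the depth can show, amounted to 0.163 to 0.177 FPKM, which covers counting error only. AKR1B10 stood at 108, 107 and 110 FPKM in BrM3-shAKR1B10 and at 799, 775 and 772 FPKM in BrM3-shNC, 13.9% of the control mean. Summed over the 7 epithelial markers, the libraries of the knockdown held 3167 to 3253 FPKM and those of the control 2986 to 3348 FPKM. The 10 markers of blood, vessel, stromal and neural cells summed to 4.24 to 4.51 and 6.07 to 6.39 FPKM, DCN was listed at 0 in all 6 libraries, COL1A1 was called lower (-0.67), and of the lung cell marker NKX2-1 there were 3 to 14 reads per library. The RNA came from bulk cultures, in which fewer cells of a kind and less RNA per cell cannot be told apart. Nothing in the labels says that the 3 libraries of a group were separate cultures, so the p-values measure only the spread between these libraries.

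The coding sequences show how close the isotypes are, and their first codons are those that autoregulation reads. The opening 30 bases of the main coding transcripts (GENCODE 29) are shown for the 5 most abundant isotypes. Capitals mark the codons of the amino end that the autoregulation factor recognizes.
TUBB4B: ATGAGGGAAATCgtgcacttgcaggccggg
TUBB: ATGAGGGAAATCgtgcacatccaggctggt
TUBA1B: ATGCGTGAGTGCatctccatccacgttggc
TUBA1C: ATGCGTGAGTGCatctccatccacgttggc
TUBA4A: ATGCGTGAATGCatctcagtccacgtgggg
TUBB4B and TUBB were identical over these 12 capital bases, as were TUBA1B and TUBA1C, and TUBA4A spells the same residues with another codon.

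Over the whole coding sequence, TUBA1A and TUBA1B were identical at 97.2% of aligned positions, TUBA1B and TUBA1C at 96.8%, and TUBA1A and TUBA1C at 95.9%. TUBA4A was the outlying alpha isotype, with 84.4% to 85.7% identity to the TUBA1 genes. Among the beta isotypes TUBB2A and TUBB2B were the closest, at 98.1%, and the other pairs lay between 81.0% and 87.7%. An alpha and a beta isotype shared between 54.9% and 57.6%.

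This likeness bears on how reads could be assigned. Of all 100-base words in the main transcript of a gene, the share also found in a transcript of another gene was 89.0% for TUBB3, 56.4% for TUBB2A, 46.2% for TUBB2B, 37.2% for TUBA1B, 18.3% for TUBA1A and 11.5% for TUBA1C. It was 5.10% for TUBB, 2.86% for TUBB4B, 1.84% for TUBA4A and 0 for TUBB6. For TUBB3 the partner was mostly AC092143.1, a readthrough gene that spans it, and for TUBB2A and TUBB2B it was each other. Genes annotated over the same bases were a further source of sharing. TUBA1B lay under the antisense gene AC011603.2 for 36.6% of its exonic bases, and TUBB3 shared 35.8% with AC092143.1. TUBA1C overlapped TUBA1A and AC125611.3 for 25.0%. TUBB6 overlapped AFG3L2 for 20.3%, TUBA4A overlapped STK16 and TUBA4B for 18.1%, and TUBB overlapped AL662797.1 for 16.0%. How reads with several possible genes were counted, and whether strand was used, is not given in the sources used here. The values of TUBA1A, TUBB2A, TUBB2B and TUBB3, and part of the reads of TUBA1B, TUBA1C, TUBA4A, TUBB and TUBB6, are therefore uncertain in their assignment.

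The beta isotypes TUBB4B and TUBB were the most abundant tubulin transcripts in both groups. TUBB4B (ENSG00000188229, chromosome 9, 137241213 to 137243707, plus strand) had 425, 448 and 460 FPKM in BrM3-shNC, and TUBB (ENSG00000196230, chromosome 6, 30720201 to 30725426, plus strand) had 416, 393 and 401 FPKM. The alpha isotypes followed, led by TUBA1B (ENSG00000123416, chromosome 12, 49127782 to 49131397, minus strand) and TUBA1C (ENSG00000167553, chromosome 12, 49188736 to 49274603, plus strand). TUBA4A (ENSG00000127824) lies on chromosome 2 from 219249711 to 219278170 on the minus strand, and TUBB6 (ENSG00000176014) on chromosome 18 from 12307669 to 12344320 on the plus strand. Then came TUBB2A (ENSG00000137267, chromosome 6, 3153669 to 3157526, minus strand), TUBA1A (ENSG00000167552, chromosome 12, 49184796 to 49189324, minus strand), TUBB3 (ENSG00000258947, chromosome 16, 89921392 to 89938761, plus strand) and TUBB2B (ENSG00000137285, chromosome 6, 3224261 to 3231730, minus strand). Positions are those of the table, which match GRCh38. Each isotype was above the next in this order without overlap of the libraries, in both groups. The exception was TUBB3 and TUBB2B, whose libraries overlapped in both groups.

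**Figure D1:**
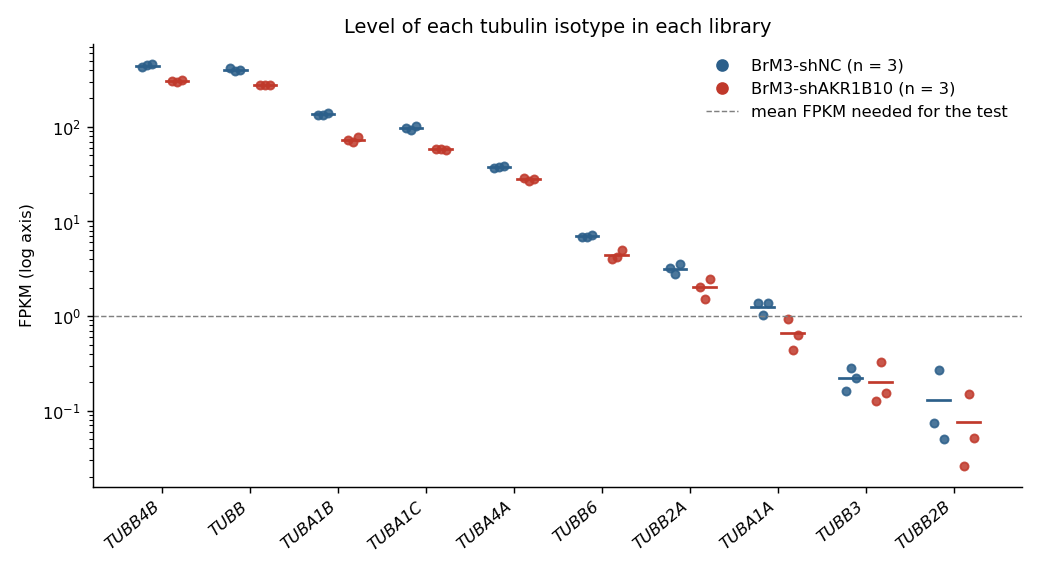
FPKM (log axis) of the 10 isotypes in each library; dots are libraries, short bars are means of 3, blue is BrM3-shNC and red is BrM3-shAKR1B10. The dashed line marks the mean of 1 FPKM needed for the test, and red lies below blue without overlap in 8 of the 10 genes.

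Silencing of AKR1B10 was accompanied by lower tubulin mRNA. Of the 10 isotypes, 7 had a mean of at least 1 FPKM and were tested, and 6 of these were called lower: TUBA1B, TUBA1C, TUBB6, TUBB2A, TUBB and TUBB4B. The seventh, TUBA4A, had a lower level with an adjusted p under 0.05 and missed the fold threshold. No isotype was called higher, and none was higher at an unadjusted p under 0.05 in limma or by voom on the recovered reads (0 of 7 each). At that unadjusted p, 27.3% of all genes tested were lower and 23.8% were higher. A call needed an adjusted p under 0.05 in limma (Benjamini-Hochberg over 13150 genes) and an absolute log2 fold change above 0.5. By this rule 7.45% of all genes tested were lower and 5.83% were higher. At an adjusted p under 0.05 without the fold threshold, 7 of the 7 isotypes and 23.1% of all genes were lower. The median log2 fold change was -0.66 over the 7 isotypes and -0.01 over all genes. The knockdown libraries lay below the control libraries without overlap for 7 of the 7 isotypes, and for 29.2% of all genes tested.

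TUBA1B, the most abundant alpha isotype, had the largest log2 fold change of the 7 isotypes tested. It had 73.1, 69.1 and 78.3 FPKM in BrM3-shAKR1B10 and 135, 135 and 139 FPKM in BrM3-shNC. The knockdown libraries were near 54.0% of the control mean and did not reach any control library. The log2 fold change was -0.89 (SE 0.049, 95% confidence interval -1.01 to -0.77, adjusted p = 4.01e-05, limma), the 325th lowest of 13150 genes.

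TUBA1C, its close relative on the same chromosome, stood at 57.8, 58.4 and 56.8 FPKM in the knockdown and 97.2, 92.8 and 102 FPKM in the control. The knockdown libraries differed from each other by less than the control libraries did, and all were lower. The log2 fold change was -0.76 (SE 0.042, interval -0.86 to -0.66, adjusted p = 4.11e-05, limma).

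TUBA4A, the alpha isotype least like the others in sequence, had 28.6, 26.9 and 28.3 FPKM in the knockdown against 36.4, 37.3 and 38.8 FPKM in the control. The groups were separate here too, but the difference was the smallest of the 7 isotypes tested. Its log2 fold change of -0.42 (SE 0.040, interval -0.52 to -0.33, adjusted p = 0.000354, limma) did not pass the fold threshold, so TUBA4A was not called.

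Of TUBA1A, the alpha isotype most studied in the developing brain, there were 27 to 86 reads per library. It stood at 0.926, 0.437 and 0.626 FPKM in the knockdown and at 1.37, 1.02 and 1.38 FPKM in the control. The groups did not overlap, but the mean of 0.960 FPKM was under the limit for testing. Fitted without that filter TUBA1A did not pass (log2 fold change -0.87, adjusted p = 0.0957, limma), nor did it without BrM3-shAKR1B10 replicate 2 (adjusted p = 0.111, limma) or replicate 3 (adjusted p = 0.109, limma), which raise its mean over the limit.

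TUBB4B, a beta isotype of most tissues and of cilia, had 304, 301 and 312 FPKM in BrM3-shAKR1B10 and 425, 448 and 460 FPKM in BrM3-shNC. All knockdown libraries were lower, and the log2 fold change was -0.54 (SE 0.039, interval -0.63 to -0.44, adjusted p = 0.000122, limma). TUBB, the constitutive beta isotype, stood at 277, 278 and 274 FPKM in the knockdown and 416, 393 and 401 FPKM in the control. Its knockdown libraries were nearly level with one another and far below the control. The log2 fold change was -0.54 (SE 0.032, interval -0.62 to -0.47, adjusted p = 5.78e-05, limma). Both values lie close to the fold threshold, and with quantile normalization TUBB4B (-0.45) and TUBB (-0.44) were no longer called.

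TUBB6, a minor beta isotype, had 4.04, 4.2 and 4.94 FPKM in the knockdown against 6.90, 6.92 and 7.13 FPKM in the control. The control libraries were close together, and the knockdown libraries were lower and more scattered. The log2 fold change was -0.66 (SE 0.079, interval -0.85 to -0.47, adjusted p = 0.000918, limma). TUBB6 had no 100-base word in another gene, but 20.3% of its exonic bases lie under AFG3L2 on the other strand, which stood at 7.42 to 8.56 FPKM over the 6 libraries, above TUBB6 itself.

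TUBB2A had 2.03, 1.51 and 2.48 FPKM in the knockdown and 3.22, 2.77 and 3.55 FPKM in the control, from 47 to 112 reads per library. The groups were separate, though by a small margin. The log2 fold change was -0.66 with a wide interval (SE 0.18, interval -1.10 to -0.22, adjusted p = 0.0272, limma). The call was lost without BrM3-shAKR1B10 replicate 1 (-0.68, adjusted p = 0.0635, limma) or replicate 2 (-0.48, adjusted p = 0.0465, limma), and without BrM3-shNC replicate 1 (-0.65, adjusted p = 0.0684, limma) or replicate 3 (-0.58, adjusted p = 0.0823, limma).

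TUBB2B was at the edge of detection, and TUBB3 had few reads, whose assignment is uncertain as most of its sequence is shared with AC092143.1. Fitted without the filter, TUBB3 (log2 fold change -0.13, adjusted p = 0.851, limma) and TUBB2B (-0.34, adjusted p = 0.673, limma) did not pass. With so few reads a difference in them remains undecided. The neuronal isotype TUBB3 had 0.128, 0.325 and 0.153 FPKM in the knockdown and 0.160, 0.280 and 0.223 FPKM in the control, 10 to 26 reads per library. TUBB2B had 0.0258, 0.151 and 0.0514 FPKM against 0.0745, 0.270 and 0.0499 FPKM, 1 to 10 reads per library. The groups overlapped for both genes.

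**Figure D2:**
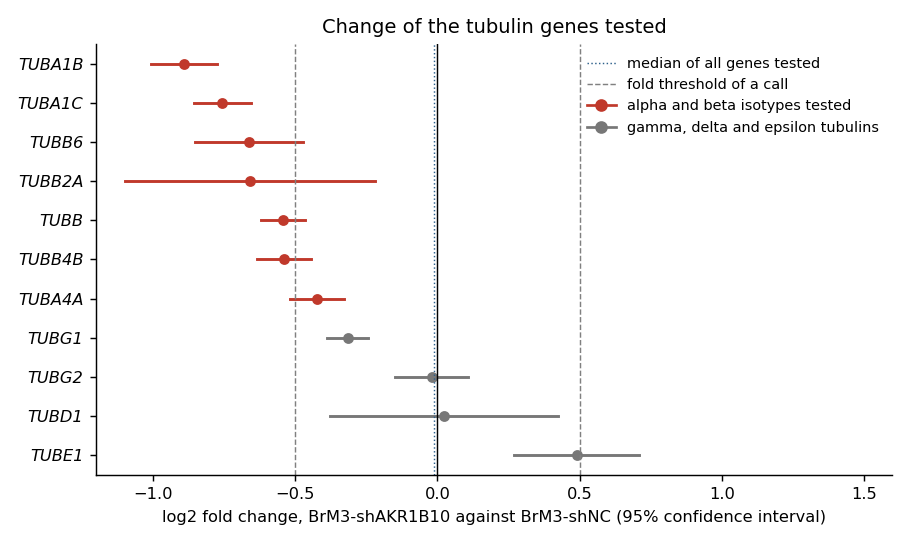
Log2 fold change of BrM3-shAKR1B10 against BrM3-shNC with its 95% confidence interval for the 7 isotypes tested (red) and the 4 gamma, delta and epsilon tubulins tested (gray). All 7 red intervals lie below 0, from -0.89 for TUBA1B to -0.42 for TUBA4A, while TUBG2 and TUBD1 straddle 0.

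Of 12 other tubulin genes, 4 were tested in limma and 0 were called, where 7.45% of all genes were called lower and 5.83% higher. By voom 1, TUBE1, was called higher. At an unadjusted p under 0.05 in limma 1 was lower and 1 higher, where 27.3% and 23.8% of all genes were. TUBG1, the gamma tubulin that nucleates microtubules, had 18.7, 18.5 and 18.4 FPKM in the knockdown and 23.4, 23.1 and 22.8 FPKM in the control. It was lower in every knockdown library, at -0.32 on the log2 scale (adjusted p = 0.000368, limma), under the fold threshold. TUBG2 (log2 fold change -0.02, interval -0.15 to 0.11) and TUBD1 (0.02, interval -0.38 to 0.43) gave intervals that include 0. TUBE1, the epsilon tubulin of centrioles, had 3.34, 2.92 and 3.36 FPKM in the knockdown and 2.39, 2.32 and 2.05 FPKM in the control. All its knockdown libraries were higher (0.49, adjusted p = 0.00610, limma), just under the threshold. The alpha and beta genes TUBA3C, TUBA3D, TUBA3E, TUBA8, TUBAL3, TUBB1, TUBB4A and TUBB8 had means under 1 FPKM. Of these TUBAL3 was higher in the knockdown without overlap, with 12, 11 and 14 reads against 8, 1 and 5 reads, and was not tested. The highest level was that of TUBA3D, at 0.878 ± 0.065 FPKM (SD, n = 3) in the knockdown and 0.826 ± 0.249 FPKM in the control.

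Summed over isotypes, the alpha side was lower by more than the beta side. The 4 alpha isotypes together gave 160, 155 and 164 FPKM in BrM3-shAKR1B10 and 270, 266 and 281 FPKM in BrM3-shNC, 58.7% of the control mean. The 6 beta isotypes gave 588, 585 and 594 FPKM against 851, 852 and 873 FPKM, or 68.6%. Neither sum overlapped between the groups (exact two-sided permutation p = 0.10 each, the smallest that 3 against 3 can give). The ratio of summed alpha to summed beta FPKM was 0.273, 0.265 and 0.276 in the knockdown and 0.317, 0.312 and 0.323 in the control. It was lower in every knockdown library, by -0.23 on the log2 scale (exact permutation p = 0.10, the smallest possible). A ratio of this kind does not depend on how libraries were scaled. Its level does depend on gene length, since the table divides by all annotated exonic bases of a gene. For TUBA1B these came to 3574 bases, 2.20 times the 1627 of its main transcript, and for TUBB4B to 1.29 times. With the length of the main transcript the ratio was 0.404 ± 0.011 in the knockdown and 0.475 ± 0.006 in the control (SD, n = 3), an alternative chosen after seeing the data. The order of the 10 isotypes by level was the same with that length, and the difference in the ratio was -0.24 on the log2 scale.

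The shares of 2 alpha isotypes did not overlap between the groups, while those of the abundant beta isotypes did. TUBA1B made up 45.6%, 44.6% and 47.7% of alpha FPKM in the knockdown and 49.9%, 50.7% and 49.3% in the control. TUBA4A made up 17.8%, 17.4% and 17.2% against 13.5%, 14% and 13.8%. The share of TUBA1B was thus 4.01 percentage points lower and that of TUBA4A 3.72 percentage points higher, both without overlap of the libraries. Neither could pass, since the exact permutation p of 0.10 is the smallest that 3 against 3 can give (adjusted 0.50 over the 10 shares). TUBA1C held 36.1% ± 1.54 and 35.8% ± 0.788 (SD, n = 3). TUBB held 47.0% ± 0.697 of beta FPKM in the knockdown and 47.0% ± 1.6 in the control, and TUBB4B 51.9% ± 0.571 and 51.8% ± 1.59, with overlapping libraries.

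**Figure D3:**
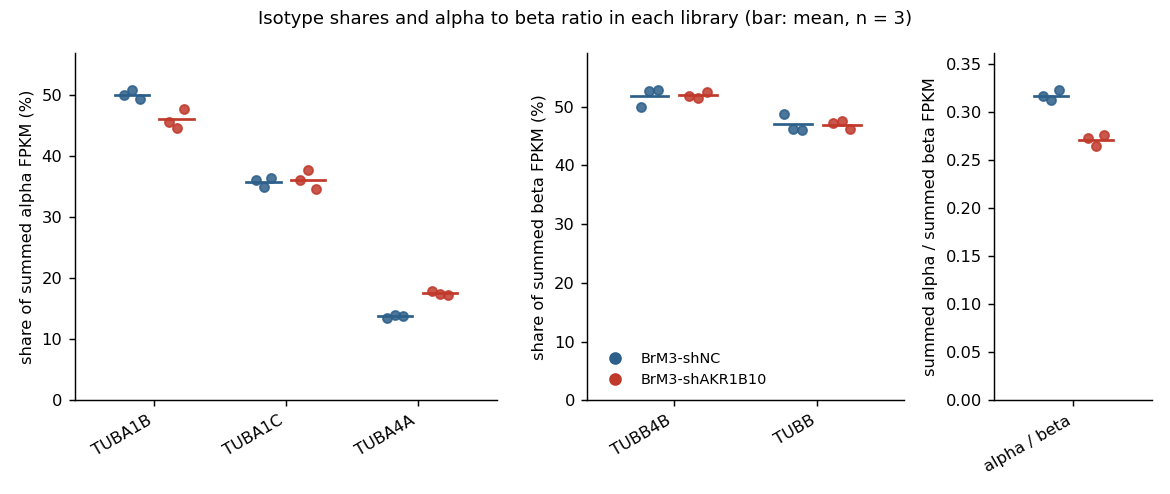
Share of each abundant isotype in the summed alpha FPKM (left, percent) or summed beta FPKM (middle, percent), and ratio of summed alpha to summed beta FPKM (right), per library; bars are means of 3, blue is BrM3-shNC and red is BrM3-shAKR1B10. TUBA1B (46.0% against 49.99%), TUBA4A (17.5% against 13.8%) and the ratio (0.271 against 0.317) separate the groups, and TUBA1C, TUBB4B and TUBB do not.

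The genes that fold tubulin dimers, and those listed for tubulin mRNA autoregulation, did not pass the threshold of a call. Tubulin folding needs prefoldin, the chaperonin CCT and the tubulin cofactors, and of 21 such genes tested 0 were called in either direction by limma or voom (median log2 fold change -0.22). At an unadjusted p under 0.05, 14 of them were lower and 2 higher, all under the fold threshold, where 27.3% and 23.8% of all genes were. TBCA, the cofactor that captures beta tubulin, had a log2 fold change of -0.10 (interval -0.20 to 0.00, adjusted p = 0.109, limma). Of 11 genes tested from the autoregulation list, 0 were called by limma or voom (median -0.17). At an unadjusted p under 0.05 in limma, 8 were lower and 0 higher, read against the same shares of all genes. Apart from TTC5 these were CNOT genes, part of the machinery that degrades the mRNA. SCAPER, also on the list, had a mean of 0.821 FPKM and was not tested. TTC5, the factor that recognizes the amino ends printed above, had 1.93 ± 0.106 FPKM in the knockdown and 1.96 ± 0.088 FPKM in the control, a log2 fold change of -0.02 (interval -0.23 to 0.20). These mRNA levels say nothing of the activity of the factor.

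Among 17 modifying enzymes tested, 2 were called lower and 1 higher (median -0.12), or 11.8% and 5.88%, near the 7.45% and 5.83% of all genes, so the counts are no result about the group. TTLL12, a member of the tubulin tyrosine ligase-like family, had 23.0 ± 0.537 FPKM against 35 ± 0.983 FPKM (log2 fold change -0.60, adjusted p = 5.76e-05, limma). The glutamylase TTLL4 was lower (-0.61) and the glycylase TTLL3 higher (0.53). TTL, which restores the terminal tyrosine of alpha tubulin, had a log2 fold change of -0.19 (interval -0.39 to 0.01), and the deacetylase HDAC6 had -0.18 (interval -0.32 to -0.05), neither called.

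Factors that act on the microtubule polymer are read against the same shares of all genes, 7.45% lower and 5.83% higher. Of 12 destabilizing genes tested, 6 were called lower (5 by voom) and 0 higher (median -0.47). STMN1 (stathmin), which holds free dimers, had 14, 13.4 and 14 FPKM in the knockdown and 26.4, 25.9 and 25.7 FPKM in the control (log2 fold change -0.91, adjusted p = 1.42e-05, limma), much like TUBA1B in size. The depolymerizing kinesins KIF2C (-1.11), KIF18A (-0.94) and KIF18B (-0.84) were lower, while STMN3 (-0.45) was not called. Of 14 stabilizing genes tested, 3 were lower and 2 were higher (median -0.29), which is 21.4% and 14.3% of a short list. The spindle proteins DLGAP5 (-1.25), NUSAP1 (-1.14) and TPX2 (-1.08) were the 3 that fell, and MAP1B (2.06) and MAP2 (0.63), best known from neurons, rose. MAP1B had 8.57, 9 and 8.63 FPKM in the knockdown and 2.18, 1.99 and 1.89 FPKM in the control. MAP4, the main structural microtubule protein of non-neuronal cells, was at -0.36 and was not called.

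Of 20 nucleation genes tested, 6 (30%) were called lower and 0 higher (median -0.30), where 7.45% and 5.83% of all genes were, led by MZT1, a small subunit of the gamma tubulin ring complex. MZT1 had 5.93, 5.37 and 4.93 FPKM in the knockdown and 25.6, 25.8 and 24.3 FPKM in the control (log2 fold change -2.21, adjusted p = 9.91e-06, limma). HAUS1 (-0.75), NEDD1 (-0.64) and TUBGCP4 (-0.57) followed. Of 16 plus-end genes tested, 4 (25%; 3 by voom) were lower and 0 higher (median -0.25), namely GTSE1 (-1.23), TACC3 (-0.72), CLIP2 (-0.67) and the polymerase CKAP5 (-0.52). MAPRE1, which encodes the end-binding protein EB1, was at -0.22 and was not called.

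Cell cycle genes moved with the tubulins. Of 51 G2/M genes tested, 48 (94.1%; 47 by voom) were called lower and 0 higher (median -1.09), and their summed level was 913 to 930 FPKM in the knockdown and 1835 to 1883 FPKM in the control. CENPA (-1.45), HMMR (-1.36), GAS2L3 (-1.36) and MKI67 (-1.34) changed most. The G2/M list also holds TPX2, DLGAP5, NUSAP1, KIF2C, GTSE1, TACC3 and CKAP5 of the lists above. Of 41 S phase genes tested, 19 (46.3%; 18 by voom) were lower and 0 higher (median -0.48), with PRIM1 (-1.06) and DSCC1 (-0.98) lowest, and their summed level was 580 to 590 FPKM against 804 to 815 FPKM. The part of these cycle genes in the tubulin result was not tested. For comparison with the other main filament system, 1 of 14 actin genes tested was lower, TMSB4X (-0.69), and 0 were higher (median -0.30). By the call rule that is 7.14% lower, at the 7.45% of all genes. At an unadjusted p under 0.05 in limma, 27.3% of all genes tested were lower and 23.8% higher. By that measure 10 of the 14 actin genes were lower. So were 51 of 51 G2/M, 37 of 41 S phase, 10 of 12 destabilizing, 13 of 20 nucleation and 8 of 16 plus-end genes. At the same p, 0 G2/M, 0 S phase and 0 destabilizing genes, 1 nucleation gene, 1 plus-end gene and 2 actin genes were higher, and voom called 0 higher in each of these 6 lists.

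The genes most like TUBA1B over the 6 libraries, by Pearson's r of log2(FPKM + 0.1), were NLGN2, AC026401.3 and DNMT1 (r = 0.999 each). Those most like TUBB4B were MCM2 (r = 0.9997), SREBF1 and EIF6 (r = 0.999 each). These r values are mostly the difference between 2 groups of 3, and 246 genes exceeded 0.99 with TUBA1B and 190 with TUBB4B. MCM2 had 18.3 ± 0.483 FPKM in the knockdown and 30.9 ± 1.67 FPKM in the control, and DNMT1 had 17 ± 0.486 and 23.3 ± 0.307 FPKM.

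Neighboring genes were compared since members of a region can share changes. Of 53 protein-coding genes tested within 100 kb of a member, 7 were called lower and 3 higher, and their median log2 fold change was 0.01. Of all genes 7.45% were lower and 5.83% higher, and the counts near single members are too small to read against these shares. Near TUBB, 3 of 9 were lower, IER3 (-0.91), MDC1 (-0.86) and NRM (-0.53), and near TUBA1C 2 of 4 were lower, TROAP (-1.02) and DNAJC22 (-0.75). None of the 3 tested near TUBA1B was called. Near TUBB4B, 1 of 16 was lower, NRARP (-0.96), and 2 were higher, CYSRT1 (0.76) and RNF224 (0.74).

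Because 6 of the 7 isotypes tested were called in 1 direction, the promoters of all 10 were searched for letters of cell cycle promoters. The motifs were CCAAT (the CCAAT box), TTTGAA (the cell cycle genes homology region, CHR) and TTCGCGC or TTGGCGC (E2F), on both strands. The windows are the 250 bases before the RefSeq gene start (GRCh38.p14), found for all 10 isotypes, with the window nearest to the main coding transcript where a gene has several. The 4 isotypes with the most reads and TUBA4A, which was not called, are shown to set changed and less changed genes side by side. Matches are in capitals.
TUBA1B, chr12:49131396-49131645, minus strand: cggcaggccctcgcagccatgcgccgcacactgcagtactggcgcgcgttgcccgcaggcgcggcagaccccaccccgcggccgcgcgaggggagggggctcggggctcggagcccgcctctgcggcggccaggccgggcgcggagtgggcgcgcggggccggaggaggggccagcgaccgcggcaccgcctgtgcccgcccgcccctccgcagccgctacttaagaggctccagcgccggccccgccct
TUBA1C, chr12:49264832-49265081, plus strand: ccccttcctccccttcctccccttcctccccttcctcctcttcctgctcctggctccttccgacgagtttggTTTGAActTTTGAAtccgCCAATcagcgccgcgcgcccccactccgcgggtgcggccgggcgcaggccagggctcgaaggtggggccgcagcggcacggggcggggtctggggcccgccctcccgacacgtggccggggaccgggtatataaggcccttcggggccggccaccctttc
TUBB, chr6:30720102-30720351, plus strand: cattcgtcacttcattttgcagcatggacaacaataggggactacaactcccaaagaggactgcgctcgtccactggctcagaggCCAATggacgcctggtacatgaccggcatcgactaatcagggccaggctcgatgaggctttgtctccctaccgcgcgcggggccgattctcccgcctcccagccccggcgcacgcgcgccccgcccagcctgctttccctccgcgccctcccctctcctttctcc
TUBB4B, chr9:137241037-137241286, plus strand: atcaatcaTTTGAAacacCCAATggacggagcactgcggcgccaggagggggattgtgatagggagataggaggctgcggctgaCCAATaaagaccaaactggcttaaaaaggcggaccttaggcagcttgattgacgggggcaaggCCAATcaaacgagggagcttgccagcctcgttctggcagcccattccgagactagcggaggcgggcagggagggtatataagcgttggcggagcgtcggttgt
TUBA4A, chr2:219253919-219254168, minus strand: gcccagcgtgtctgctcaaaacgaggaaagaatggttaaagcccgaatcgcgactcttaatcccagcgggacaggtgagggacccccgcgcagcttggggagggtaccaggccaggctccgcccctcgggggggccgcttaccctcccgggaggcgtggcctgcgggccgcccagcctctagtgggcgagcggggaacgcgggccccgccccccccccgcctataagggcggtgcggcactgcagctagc
TUBA1C held TTTGAA at -178 and -170 and a CCAAT box at -160, counted from the RefSeq start. TUBB4B held TTTGAA at -242 and CCAAT boxes at -232, -166 and -103. TUBB held 1 CCAAT box at -165, and the windows of TUBA1B and TUBA4A held none of the motifs. Over 35116 RefSeq windows, CCAAT was found in 32.0%, TTTGAA in 13.3%, the E2F letters in 4.24%, and CCAAT together with TTTGAA in 4.69%. Of the 10 isotypes, 7 held CCAAT, 2 held TTTGAA together with CCAAT, and 1, TUBB2B, held the E2F letters. The 7 with CCAAT include TUBA1A, TUBB2B and TUBB3, which were under the limit for testing. TUBA1B and TUBB2A, both called lower, held no match. TUBA1B, which changed most of the 7 isotypes tested, and TUBA4A, which changed least, were alike in holding no match. These matches describe letters in one window per gene, and the RefSeq start lay 0 to 244 bases from the start of the main coding transcript.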

How the data were processed

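RNA-seq of PC9-BrM3 cells was available for 3 BrM3-shAKR1B10 and 3 BrM3-shNC libraries, grouped by their labels. According to the supplementary methods and the submitters' processing notes, the authors purified mRNA with poly-T beads, filtered reads, aligned them with HISAT2 2.0.5 and counted them per gene with featureCounts 1.5.0-p3. The authors deposited FPKM values for 58735 genes with gene lengths. The genome build is not given in the sources used here, and all 58735 genes match GENCODE 29 (GRCh38) positions.

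Genes with a mean of at least 1 FPKM entered limma 3.58.1 (R 4.3.3, eBayes with a trend) as log2(FPKM + 0.1), with Benjamini-Hochberg adjustment over all 13150. Fold changes on this scale understate those of low genes. The thresholds of a call were 0.05 for the adjusted p and 0.5 for the size of the log2 fold change. On simulated data, the test found 171 of 200 changed genes in their true direction and made 8 false calls, over 12970 genes run. Reads were recovered from FPKM as whole numbers for 100% of values (tolerance 0.02 reads). Sums, ratios and shares were compared by exact permutation tests. Replicates differed by more than counting noise (chi-square per gene 2.35 to 4.97).

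The members and gene lists were chosen with earlier results of these data known. Named genes are the 10 isotypes, AKR1B10, all other tubulins, up to 4 called genes per list and direction with the largest change, genes named for their role (TTC5, STMN1, STMN3, TBCA, HDAC6, TTL, MAP4, TUBG1, MAPRE1), the 3 genes most like TUBA1B and TUBB4B, and neighbors within 100 kb. DCN and NKX2-1 are named as cell type markers. The alternatives tried were other pseudocounts (1 and 0.01), other filters (none, or a mean of at least 5 FPKM), TPM, quantile normalization, eBayes without a trend, voom on the recovered reads (trimmed mean of M-values scaling), a replicate block, leaving out each library, summing every TUBA or TUBB gene and, added after seeing the data, transcript lengths. Promoters came from RefSeq (GRCh38.p14) and transcripts from GENCODE 29. Coding sequences were aligned with biopython 1.88. The coding ends of the isotypes are not reported here.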

Additional observations from a re-analysis of the deposited data

How the results depend on the processing

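The 6 isotypes called lower became 4 with quantile normalization and 5 with a mean of at least 5 FPKM, where TUBB2A is not tested, and stayed within 4 to 6 under all alternatives run, with no isotype called higher. TUBA1B, TUBA1C and TUBB6 were called under every alternative run, and TUBA4A under none. With quantile normalization TUBB4B was at -0.45 and TUBB at -0.44. TUBB2A was not called with a pseudocount of 1 (-0.48, adjusted p = 0.0248, limma), without a filter (-0.66, adjusted p = 0.0692, limma), or without either of 2 libraries of each group. The summed beta FPKM differed by -0.51 on the log2 scale as TPM, against -0.54 as deposited. Leaving out each library in turn gave 5 to 6 isotypes lower, -0.79 to -0.75 for the alpha sum, -0.55 to -0.53 for the beta sum and -0.24 to -0.21 for the alpha to beta ratio. Of all genes, 980 were lower and 766 higher. A mean of at least 5 FPKM gave 532 and 290 among fewer genes tested (7355), and a pseudocount of 1 gave 497 higher. As TPM the balance turned, with 873 genes lower and 902 higher. By voom on the recovered reads 960 genes were lower and 859 higher, and 6 isotypes were lower. Same-numbered libraries did not deviate together (correlations -0.016, 0.0039 and 0.0038), so the numbers do not pair them; with the replicate block 6 isotypes, 967 genes lower and 719 higher were called. The depth limits TUBA1A, TUBB2B and TUBB3, at 1 to 86 reads per library.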
